A study of Mus musculus with 8 samples.

Results

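The genes of the AP-1 transcription factors were followed through the H3K4me3 ChIP-Seq data of wild-type (wt) and menin-null mouse cells. They were chosen by name, as the Jun and Fos family genes and Atf3, and came to 8 genes of the 26212 in the annotation used: Jun, Junb, Jund, Fos, Fosb, Fosl1, Fosl2 and Atf3. For each gene, H3K4me3 tags within 1 kb of the transcription start site were counted in the 4 ChIP libraries and set against the input tags of the surrounding DNA.

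AP-1 is a dimer of basic leucine zipper proteins. Jun proteins (Jun, Junb and Jund) pair with each other or with Fos proteins (Fos, Fosb, Fosl1 and Fosl2), whereas Fos proteins need a Jun partner, and Atf3, a stress-induced member of the ATF group, can pair with Jun proteins. Most of these genes are immediate-early genes, switched on within minutes by growth factors and stress and held in a promoter state that carries H3K4me3, the mark of histone H3 trimethylated at lysine 4. JunD is the Jun protein that binds menin, the product of the tumor suppressor gene Men1 and a subunit of MLL-containing complexes that deposit H3K4me3.

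The wt mouse embryonic stem cells (mESCs) were of the line TC-1 and the menin-null mESCs of the Men1-ko line 3.2N, with the genetic background 129S6/SvEvTac given for the series, so each genotype was represented by 1 line. The mESCs had been grown on irradiated feeder cells, which were removed by repeated short platings before use. Pancreatic islet-like endocrine cells (PILECs) were obtained from each line by differentiation in culture. For every one of the 4 cell populations a single H3K4me3 library and a single input library were sequenced, so no value below has a replicate check, and the intervals cover counting error only.

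The H3K4me3 libraries held 2432377 tags (wt mESCs), 3517028 tags (menin-null mESCs), 18773635 tags (wt PILECs) and 17682677 tags (menin-null PILECs), so the mESC values rest on fewer tags. Over Men1 exons 3 to 8 the inputs of wt mESCs and wt PILECs held 17 and 22 tags, and those of both menin-null cells held 0, each of which allows up to 3 tags. All 7 embryonic stem cell markers had less H3K4me3 in PILECs than in mESCs of either genotype; Pou5f1, the gene of Oct4, had 61.3 and 77.9 RPM (tags scaled to a library of 1000000) in wt and menin-null mESCs and 3.25 and 2.26 RPM in the PILECs. The islet hormone genes Ins1, Ins2, Gcg, Iapp and Sst carried at most 1.28 RPM in either kind of PILEC. Of the islet regulators, Pax6 had 16.9 and 21.9 RPM in wt and menin-null mESCs and 19.3 and 21.9 RPM in the PILECs. Isl1, Pdx1 and Nkx6-1 had less RPM in PILECs than in mESCs of either genotype. Neurod1 had more, with 6.99 and 2.84 RPM in wt and menin-null mESCs and 7.24 and 5.54 RPM in the PILECs. The neuronal genes Tubb3 (48.7 and 47.1 RPM in the PILECs) and Dcx had more RPM in PILECs than in mESCs of either genotype and Nes and Neurog1 less. Of the fibroblast markers, Prrx1 (12.8 and 9.84 RPM in the PILECs), Col1a1, Col1a2, Col3a1 and Postn had more and Twist2 and Thy1 less. These directions are of RPM, and some differed against the input tags within 250 kb. On that scale Nes rose from 15.0 to 22.5-fold in wt and from 16.5 to 17.2-fold in menin-null cells. Nkx6-1 rose from 6.5 to 6.7-fold and from 8.8 to 9.5-fold, whereas Neurod1 and Postn fell in wt and Col1a2 in menin-null cells. Summed over each list, the PILECs of wt and menin-null origin held 85.5 and 79.3 RPM for neural markers, 50.2 and 44.4 RPM for fibroblast markers and 45.2 and 50.8 RPM for islet markers, against 49.3 and 67.1 RPM, 44.8 and 42.6 RPM, and 62.1 and 68.8 RPM in wt and menin-null mESCs. The part of other cell types in the stage comparisons was not tested.

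The 8 genes lie on 7 chromosomes of mm9. Jund (chr8:73221638-73224515, plus strand) and Junb (chr8:87500811-87502617, minus strand) share chromosome 8. Jun is at chr4:94715725-94718913 (minus), Fos at chr12:86814840-86818223 (plus), Fosb at chr7:19888070-19895394 (minus), Fosl1 at chr19:5447703-5455945 (plus), Fosl2 at chr5:32438845-32460204 (plus) and Atf3 at chr1:192994175-193007219 (minus). Junb is a single-exon gene, Jun and Jund each have 1 transcript with a single exon, and the main transcripts of Fos, Fosb, Fosl1, Fosl2 and Atf3 have 4 exons. Within 5 kb of a member's annotated 5′ start lay the starts of BC042782 (688 bp into Jun, opposite strand), Gm12703 (3852 bp downstream of the Jun start, same strand), Gm11175 (2341 bp downstream of the Jund start, opposite strand) and Gm10463 (at -3304 bp from the Fosl2 start, opposite strand).

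The 250 bases before the start differ in kind between members, and those of the 4 genes that the results turn on, Jun, Junb, Jund and Fos, are shown with those of Atf3. They are RefSeq promoter sequences (GRCm38.p6), available for 7 of the 8 members, and each was placed on mm9 by its only exact match; Fosl1 is named only. Positions in them are counted from the RefSeq start, which for Atf3 lies 7 bp further into the gene and for Junb 30 bp further upstream than the annotated 5′ start used for the tags, and is the same position for the other 5. Capitals mark TATAAA, TTACCTCA, TGACATCA and TGACGT on either strand.
Jun (chr4:94718914-94719163, minus): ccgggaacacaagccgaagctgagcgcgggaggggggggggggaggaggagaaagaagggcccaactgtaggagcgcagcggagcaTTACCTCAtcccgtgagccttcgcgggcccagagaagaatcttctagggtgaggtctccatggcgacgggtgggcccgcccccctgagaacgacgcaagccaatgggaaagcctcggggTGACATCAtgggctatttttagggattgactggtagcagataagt
Junb (chr8:87502648-87502897, minus): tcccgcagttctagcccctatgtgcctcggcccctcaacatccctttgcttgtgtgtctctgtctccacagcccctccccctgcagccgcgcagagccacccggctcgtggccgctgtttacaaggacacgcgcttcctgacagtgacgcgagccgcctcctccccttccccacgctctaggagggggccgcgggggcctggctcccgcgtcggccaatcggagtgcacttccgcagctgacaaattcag
Jund (chr8:73221388-73221637, plus): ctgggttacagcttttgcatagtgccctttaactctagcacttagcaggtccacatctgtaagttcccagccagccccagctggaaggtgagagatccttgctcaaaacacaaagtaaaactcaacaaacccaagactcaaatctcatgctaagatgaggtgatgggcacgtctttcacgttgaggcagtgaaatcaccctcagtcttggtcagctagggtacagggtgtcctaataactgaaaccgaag
Fos (chr12:86814590-86814839, plus): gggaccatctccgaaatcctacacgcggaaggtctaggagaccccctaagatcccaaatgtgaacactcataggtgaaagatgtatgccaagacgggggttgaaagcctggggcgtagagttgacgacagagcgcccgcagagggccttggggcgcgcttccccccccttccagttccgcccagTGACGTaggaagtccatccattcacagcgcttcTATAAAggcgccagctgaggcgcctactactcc
Atf3 (chr1:193007213-193007462, minus): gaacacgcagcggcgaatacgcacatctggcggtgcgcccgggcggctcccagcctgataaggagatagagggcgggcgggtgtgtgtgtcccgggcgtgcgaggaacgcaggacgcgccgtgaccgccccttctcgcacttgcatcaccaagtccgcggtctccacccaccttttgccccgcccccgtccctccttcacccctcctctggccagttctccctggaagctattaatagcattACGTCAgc

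The Jun sequence held TGACATCA, the proximal AP-1-like site through which Jun is known to act on its own promoter, 45 to 38 bp upstream, and TTACCTCA, the more distal site of that kind, 164 to 157 bp upstream. TGACATCA occurs in 2.93% and TTACCTCA in 0.728% of 32851 mouse promoter sequences of this length, searched on both strands. Fos held TATAAA 33 to 28 bp upstream, a string found in 12.4% of promoters and in none of the other 6 members searched, and TGACGT, the first 6 bases of the cAMP response element, 66 to 61 bp upstream. Atf3 held the reverse complement of TGACGT 8 to 3 bp upstream of the RefSeq start, and TGACGT occurs in 6.47% of promoters. The whole element TGACGTCA (1.55% of promoters), the classic AP-1 site TGACTCA (4.46%) and the CArG box bound by SRF (1.47%) were not in these windows of any of the 7 members. CCAAT (33.8%) was in Jun and Junb, and GGGCGG (32.7%) was in Jun, Fos, Fosb, Fosl2 and Atf3. None of the strings searched was found in the Jund sequence shown above, which lies before its RefSeq start.

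Jund also stood apart in CpG dinucleotides. Its 250 bases held 3 CpG sites (0.21 of the number its base composition predicts), against 15 in Jun, 15 in Fos, 19 in Fosb, 20 in Junb, 23 in Fosl2 and 24 in Atf3, and a median of 6 over all promoters. A second annotated Jund start lies 1219 bp further into the gene, at position 73222857, within the exon of the longer transcript and 100 bp before the start codon. The 250 bases before this inner start held 33 CpG sites, 1.10 of the number predicted. They were not searched for the strings above, so the absence of those strings holds only for the sequence before the RefSeq start.

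H3K4me3 at Jund followed the inner start. Within 1 kb of the outer start there were 19 and 27 tags in wt and menin-null mESCs and 164 and 142 tags in wt and menin-null PILECs, or 7.68 to 8.74 RPM. Within 1 kb of the inner start there were 174, 461, 1004 and 975 tags, or 71.5, 131, 53.5 and 55.1 RPM in the same order. The inner start was therefore used for Jund, by the same rule as for every gene, which takes the start with the most H3K4me3 RPM summed over the 4 libraries; for the other 7 members that was the annotated 5′ start.

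All 8 genes carried H3K4me3 above the local input in every library. In wt mESCs the Jun family was highest, with 71.5 RPM at Jund, 58.4 RPM at Junb and 56.7 RPM at Jun. Fosl2 followed with 42.3 RPM, Atf3 with 33.3 RPM, Fos with 22.6 RPM, Fosb with 16.0 RPM and Fosl1 with 13.6 RPM. Between neighbours in this order, Jun exceeded Fosl2 by 0.42 on the log2 scale (0.05 to 0.79) and Atf3 exceeded Fos by 0.55 (0.06 to 1.04), whereas the interval of the difference included 0 for the other 5 pairs. The order was not the same in the PILECs, where Jun was highest and exceeded Jund by 0.28 (0.16 to 0.40) in wt and 0.45 (0.33 to 0.57) in menin-null cells. In wt mESCs Jund exceeded 98.2% of all genes and Fosl1 54.6% of them. Against input tags within 250 kb (leaving out 2 kb on each side of the start), the fold in wt mESCs ran from 8.33 at Fosl1 to 69.3 at Jun, and it was 26.1 at Jund, where the surrounding input was densest.

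**Figure D1:**
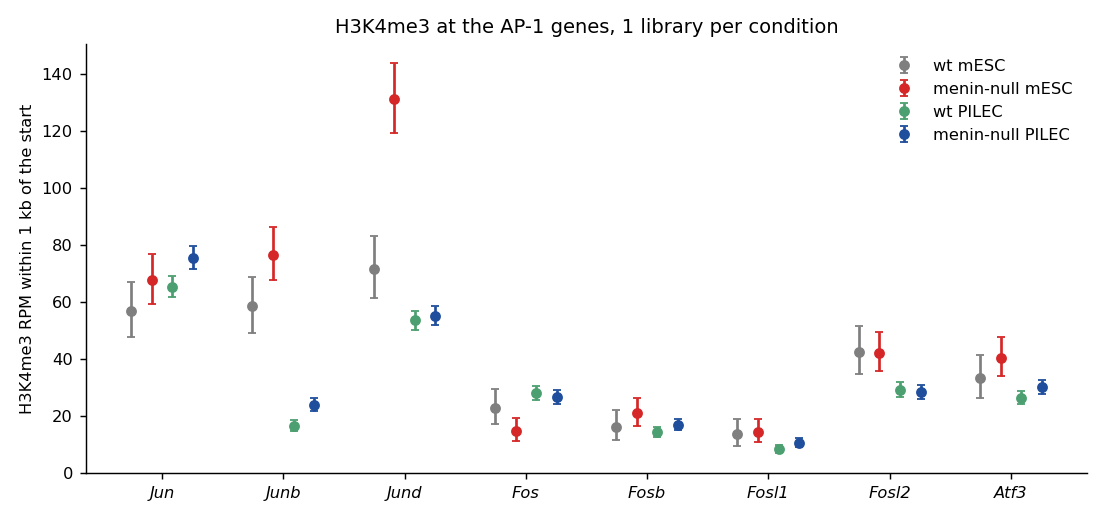
H3K4me3 RPM within 1 kb of the start used for each AP-1 gene (vertical axis) in the 4 ChIP libraries (colors); points are single libraries and bars are exact 95% Poisson intervals of the tag count. Jund in menin-null mESCs, at 131 RPM, is the highest point, and Junb falls from 58.4 and 76.5 RPM in mESCs to 16.6 and 23.8 RPM in PILECs.

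The mark at the gene of menin's partner JunD was compared by the ratio of menin-null to wt cells. Genotype and cell line coincide, so an effect of menin loss cannot be told apart from other differences between the lines or libraries. In mESCs Jund had more H3K4me3 in the menin-null line than in the wt line. Its level was 71.5 RPM (95% Poisson interval 61.3 to 83.0) in wt mESCs and 131 RPM (119 to 144) in menin-null mESCs, and the 2 intervals did not overlap. Before the input was considered the log2 ratio was 0.87 (95% counting interval 0.62 to 1.12). Jund lies on chromosome 8, which took 6.61% of the input tags of wt mESCs and 7.55% of those of menin-null mESCs, the highest input ratio of the 19 autosomes (0.20 above the autosome median on the log2 scale). Within 250 kb of Jund the inputs held 2888 tags (wt) and 2720 tags (menin-null), a log2 ratio of 0.10 (0.02 to 0.17) after scaling by the library totals. Divided by this local ratio, Jund was still higher in menin-null mESCs, with a log2 ratio of 0.77 (0.51 to 1.04), or 1.71-fold.

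A gene was called higher or lower when this ratio reached 1.5-fold with an interval that left out 0, among genes with at least 20 tags in the 2 H3K4me3 libraries. By that rule 2 of 8 members were called higher in menin-null mESCs, Jund and Fosb, and none lower, against 10.3% of 15204 genes called higher and 1.51% called lower. Before the division Jund alone was called higher, as were 8.95% of genes. The median log2 ratio of all these genes was 0.24, so Jund lay 0.53 above it, and 96.1% of genes lay lower than Jund. With the median of all genes set to 0, no member was called, and around the outer start of Jund, with its 19 and 27 tags, the log2 ratio was -0.13. Of promoters on chromosome 8, 26.2% were called higher before the division by the local input and 9.67% after it, against 7.97% and 10.4% on the other chromosomes.

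The other Jun genes differed less. Junb, which with Jund shares chromosome 8, had 58.4 RPM in wt and 76.5 RPM in menin-null mESCs. Its log2 ratio was 0.38 (0.09 to 0.68) before and 0.20 (-0.10 to 0.51) after division by a local input ratio of 0.18. Jun had 56.7 and 67.7 RPM, and its log2 ratio was 0.32 (-0.01 to 0.65) after division. Neither was called, and both intervals included 0 after the division.

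Fos gave the clearest case of an input difference. It had 22.6 RPM in wt mESCs (55 tags) and 14.8 RPM in menin-null mESCs (52 tags), and its log2 ratio before division was -0.61 (-1.15 to -0.07), lower than at all but 3.33% of genes and called lower, as were 1.88% of genes. The input within 250 kb of Fos held 1293 tags in wt and 582 tags in menin-null mESCs, a log2 ratio of -0.97 (-1.11 to -0.83). After division the log2 ratio at Fos was 0.36 (-0.20 to 0.92) and it was no longer called. Fos was thus lower in tags per library but not in tags per local input.

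The input deficit around Fos had sharp edges. In bins of 200 kb it covered 1.8 Mb (chr12:85814840-87614839), from 1.0 Mb upstream to 0.8 Mb downstream of the Fos start. Over this stretch the inputs held 4677 tags in wt and 2199 tags in menin-null mESCs, a ratio of 0.533 after scaling by library totals (log2 -0.91, -0.98 to -0.83). In PILECs the same stretch held 16393 tags in wt and 13496 tags in menin-null cells, a ratio of 0.864 (log2 -0.21, -0.24 to -0.18), so that the deficit was smaller there. Its edges were set on the mESC inputs, so the mESC value describes the stretch that was chosen. Of the 34 genes in it, 27 had enough tags in mESCs, and their median H3K4me3 log2 ratio was -0.83 before and 0.09 after division. Of the 27, 20 were called lower before and 1 after, against 1.88% and 1.51% of all genes. In PILECs 30 had enough tags, with a median of -0.28 before and -0.08 after division. Of the 30, 1 was called lower before and 1 after, against 4.31% and 4.25% of all genes. Jdp2 and Batf, relatives of the Fos proteins, lie in the same stretch. In mESCs Jdp2, which represses AP-1 sites, had a log2 ratio of -0.31 before and 0.59 (0.05 to 1.13) after division. Batf had 2 tags in wt and 5 tags in menin-null mESCs, too few for a ratio. The inputs around Jund and Junb showed no such step within 4 Mb.

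**Figure D2:**
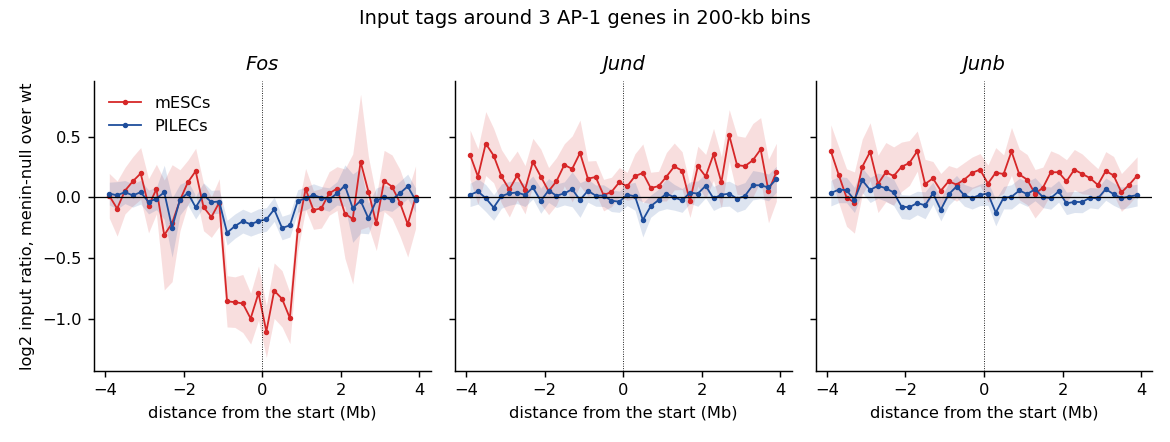
Log2 ratio of input tags, menin-null over wt, in 200-kb bins (vertical axis) by distance from the start of Fos, Jund and Junb (horizontal axis, Mb) for mESCs and PILECs; shading is the 95% counting interval of each bin. The mESC line at Fos drops to about -0.91 from 1.0 Mb upstream to 0.8 Mb downstream, the PILEC line drops by 0.21 over the same stretch, and the lines at Jund and Junb have no step.

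Of the other Fos genes, Fosb, which encodes FosB and its truncated form known from neurons, was called higher in menin-null mESCs. It had 16.0 RPM (39 tags) in wt and 21.0 RPM (74 tags) in menin-null mESCs, with a log2 ratio of 0.37 (-0.18 to 0.93) before and 0.66 (0.09 to 1.22) after division, so the call rested on a local input that was lower in menin-null mESCs (1422 tags against 1959). With input within 1000 kb or over the whole chromosome, or with tags within 500 bp of the start, Fosb was not called. Fosl1, the gene of Fra-1, had 13.6 and 14.5 RPM and a log2 ratio of 0.18 (-0.45 to 0.81) after division. Fosl2, the gene of Fra-2, had 42.3 and 42.1 RPM and a log2 ratio of -0.06 (-0.44 to 0.32), the lowest of the 8. Atf3 had 33.3 and 40.4 RPM and a log2 ratio of 0.27 (-0.12 to 0.66) before division. After division by a local input that was lower in menin-null mESCs (1221 tags against 1648), its log2 ratio was 0.52 (0.11 to 0.93). This left out 0 but stayed under 1.5-fold.

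**Figure D3:**
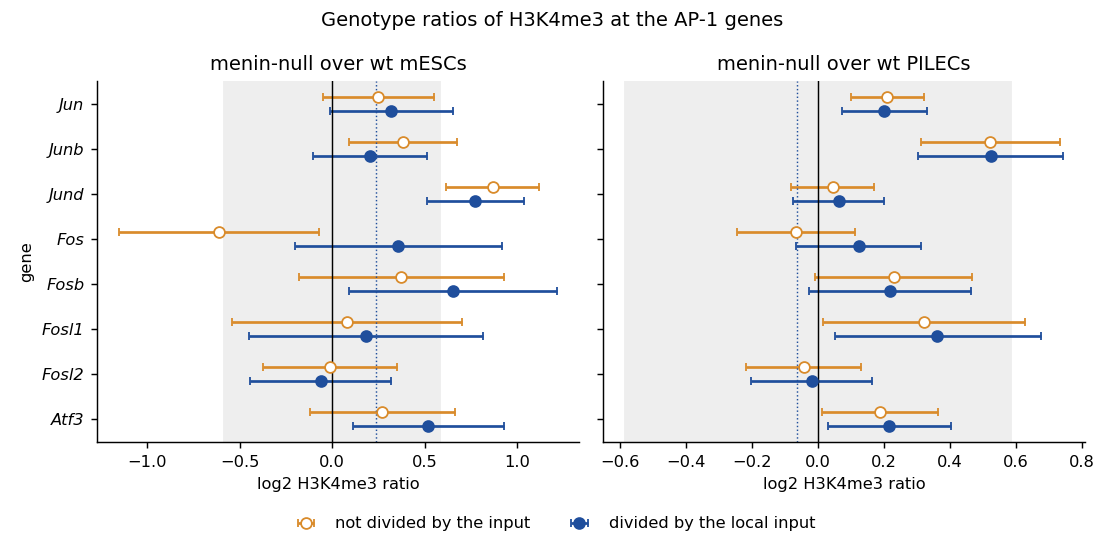
Log2 ratio of H3K4me3, menin-null over wt (horizontal axis), at each AP-1 gene in mESCs (left) and PILECs (right), before (open) and after (filled) division by the local input ratio; bars are 95% counting intervals, the grey band spans ratios under 1.5-fold and the dotted line is the median of all genes after division. Division moves Fos in mESCs from -0.61 to 0.36 and leaves Jund at 0.77, and no filled point in PILECs leaves the grey band.

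In PILECs none of the 8 members was called in either direction, against 1.77% of 20259 genes called higher and 4.25% called lower (1.72% and 4.31% before the division, when no member was called either). In 1 random draw of all libraries thinned to the smallest, Junb (0.82) and Fosl1 (1.55) were called higher. The share of all genes called in that draw is not given. The Fosl1 value of the draw lies outside its full-depth interval of 0.05 to 0.67. Jund had 53.5 RPM (1004 tags) in wt and 55.1 RPM (975 tags) in menin-null PILECs. Its log2 ratio was 0.06 (-0.08 to 0.20) after division, an interval that leaves out the 1.71-fold of the mESCs. Junb had the largest ratio, with 16.6 RPM in wt and 23.8 RPM in menin-null PILECs and a log2 ratio of 0.52 (0.30 to 0.74), or 1.44-fold, more than at 92.7% of genes. With the median of all genes (-0.06) set to 0 Junb alone was called, as higher. The log2 ratios after division were 0.36 (0.05 to 0.67) at Fosl1, 0.22 (-0.03 to 0.46) at Fosb, 0.22 (0.03 to 0.40) at Atf3 and 0.20 (0.07 to 0.33) at Jun. Fos was at 0.12 (-0.07 to 0.31) and Fosl2 at -0.02 (-0.20 to 0.17). The median of the 8 was 0.21, against -0.06 over all genes.

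The genotype ratio at Jund differed between the stages by more than counting error. The log2 ratio in PILECs minus that in mESCs was -0.71 (-1.01 to -0.41) at Jund, and -0.82 (-1.11 to -0.54) without the division by the input. Over 15124 genes the median of this difference was -0.34, and 14.7% of genes had a difference lower than Jund. For the other 7 members the interval of the difference included 0; it ran from -1.05 to 0.18 at Fosb and from -0.06 to 0.70 at Junb.

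Between the stages, Junb lost H3K4me3 on differentiation in both genotypes. It went from 58.4 RPM in wt mESCs to 16.6 RPM in wt PILECs, and from 76.5 to 23.8 RPM in menin-null cells. The log2 ratio of PILECs to mESCs was -0.95 (-1.25 to -0.66) in wt and -0.63 (-0.87 to -0.40) in menin-null cells after division by the local input, and -1.82 and -1.69 before it. Junb was called lower with and without the division in either genotype, while 16.2% of genes in wt and 26.0% in menin-null cells were called lower after division (22.4% and 36.2% before it). After division it was 1 of 4 members called in wt cells and the only member called in menin-null cells. Before division Fosl1 was also called lower in wt cells, and Jund lower and Fos higher in menin-null cells. With tags within 500 bp of the start the ratios were -0.56 and -0.36 and Junb was not called. In menin-null cells the call was also lost with input within 50 kb (-0.49), with 1 tag per position and strand (-0.58), with all libraries thinned to the smallest (-0.58) and with the median of all genes set to 0 (-0.57).

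The other 3 calls in wt cells were higher in PILECs, among 28.3% of genes called higher. They were Jund with a log2 ratio of 0.89 (0.65 to 1.13), Fosb with 0.85 (0.36 to 1.33) and Fos with 0.66 (0.25 to 1.07). None of the 3 was called before division, when Fos had 0.28 (-0.12 to 0.68). With the median of all genes set to 0, Fos was at 0.43 after division and was not called. For Jund and Fosb the direction itself came from the division. Their H3K4me3 levels were lower in wt PILECs (53.5 RPM at Jund and 14.3 RPM at Fosb) than in wt mESCs (71.5 and 16.0 RPM), with log2 ratios of -0.43 (-0.66 to -0.19) and -0.20 (-0.68 to 0.28) before division, when 14.4% of genes were called higher. The local input at Jund was 2.74 RPM per 2 kb in wt mESCs and 1.10 RPM in wt PILECs, a log2 ratio of -1.32, and at Fosb it was 1.86 and 0.90 RPM. At Jun the local input was alike, at 0.82 and 0.83 RPM, and its H3K4me3 log2 ratio was 0.19 (-0.06 to 0.44) before and 0.18 (-0.10 to 0.45) after division. The cause of the denser mESC input around most members was not tested, so the stage ratios of Jund and Fosb within 1 kb of the start have no direction that holds on both scales.

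In menin-null cells 16.3% of genes were called higher in PILECs after division. Jund went from 131 RPM in mESCs to 55.1 RPM in PILECs, a log2 ratio of -1.25 (-1.41 to -1.09) before and 0.18 (0.01 to 0.35) after division. Fos was called higher before division (0.82, 0.42 to 1.23; 9.15% of genes were called higher on that scale) and not after it (0.43, 0.00 to 0.86). Fosl2 was under 0 on both scales and in both genotypes without being called, with log2 ratios of -0.37 (-0.69 to -0.05) in wt and -0.33 (-0.61 to -0.05) in menin-null cells after division. With the median of all genes set to 0, Fosl2 was at -0.60 in wt cells and was called lower. Fosl1 and Atf3 lay below 0 before division and above it after division in both genotypes. Each stage comparison shares H3K4me3 and input libraries with both genotype comparisons, so these are not independent; the 2 stage comparisons have no library in common.

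**Figure D4:**
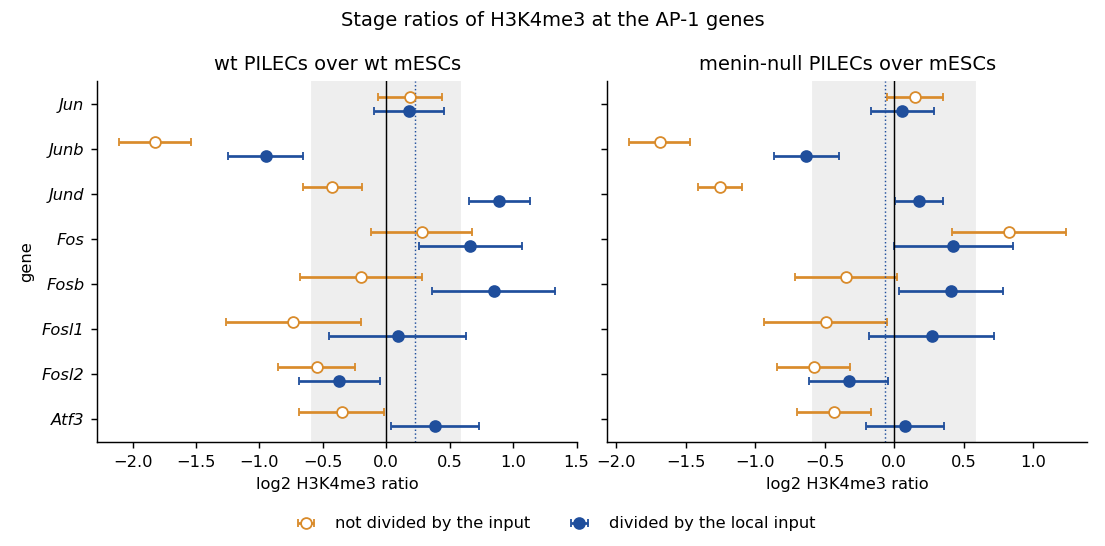
Log2 ratio of H3K4me3, PILECs over mESCs (horizontal axis), at each AP-1 gene in wt (left) and menin-null cells (right), before (open) and after (filled) division by the local input ratio; bars are 95% counting intervals, the grey band spans ratios under 1.5-fold and the dotted line is the median of all genes after division. Junb lies left of 0 on both scales in both panels, whereas Jund in wt cells moves from -0.43 to 0.89.

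The mark differed in shape between members. At Jund most of it lay inside the gene, with few tags before 400 bp from the outer start. From 1200 to 2800 bp, over the inner start and the coding sequence, there were 211 tags (86.7 RPM) in wt mESCs, 567 tags (161 RPM) in menin-null mESCs, 1268 tags (67.5 RPM) in wt PILECs and 1265 tags (71.5 RPM) in menin-null PILECs. Over the 800 bp before that stretch the levels were 7.81, 7.39, 8.84 and 6.62 RPM. The genotype log2 ratio in mESCs was 0.79 (0.55 to 1.03) over the main stretch after division and -0.19 (-1.03 to 0.64) over the 800 bp before it, where 19 and 26 tags were counted. In PILECs it was 0.10 (-0.02 to 0.23) over the main stretch after division. Over the 800 bp before it, with 166 tags in wt and 117 tags in menin-null PILECs, it was -0.40 (-0.74 to -0.05). From 3000 to 4000 bp, past the end of the gene, there were 4 tags (1.64 RPM) and 16 tags (4.55 RPM) in wt and menin-null mESCs but 218 tags (11.6 RPM) and 184 tags (10.4 RPM) in the PILECs. It was higher in PILECs on both scales, with wt log2 ratios of 2.50 (1.23 to 3.78) before and 3.82 (2.54 to 5.10) after division and menin-null ratios of 1.11 (0.40 to 1.83) and 2.55 (1.83 to 3.27). The gene Gm11175 starts within the main stretch on the other strand, so tags of the 2 genes cannot be told apart there.

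The mark at Junb had 3 maxima, which in wt mESCs were joined by bins of at least 1 RPM per 200 bp from 2000 bp upstream to 3000 bp downstream. The joining rests on few tags, as the bins from 800 to 200 bp upstream held 3 tags each. In menin-null mESCs these bins held 1, 0 and 2 tags, and the run covered 3200 bp, from 200 bp upstream to 3000 bp downstream. The gene body, from 0 to 1600 bp, had 185 tags (76.1 RPM) in wt and 383 tags (109 RPM) in menin-null mESCs, but only 357 and 519 tags in the deeper libraries of wt and menin-null PILECs. The stretch 2200 to 1400 bp upstream had 16.9 RPM (41 tags) and 23.0 RPM (81 tags) in the mESCs but 1.01 RPM (19 tags) and 1.24 RPM (22 tags) in the PILECs. Its PILEC to mESC log2 ratio after division was -3.15 (-3.92 to -2.38) in wt and -3.11 (-3.78 to -2.44) in menin-null cells, against -1.13 (-1.40 to -0.87) and -0.84 (-1.04 to -0.63) for the gene body. No other protein-coding, long intergenic noncoding RNA or processed-transcript gene of the annotation starts within 5 kb of Junb, and other kinds of gene were not searched. The last stretch, 2000 to 3000 bp downstream and past the end of the gene, had 20.6 and 26.2 RPM in mESCs and 5.06 and 5.71 RPM in PILECs. Over the gene body the menin-null to wt log2 ratio after division was 0.63 (0.42 to 0.83) in PILECs and 0.33 (0.06 to 0.60) in mESCs.

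At Jun the upstream and downstream parts were compared between the stages. From 1400 to 200 bp upstream Jun had 34.1 and 40.7 RPM in wt and menin-null mESCs and 30.0 and 30.1 RPM in the PILECs, with PILEC to mESC log2 ratios of -0.21 (-0.56 to 0.13) in wt and -0.53 (-0.82 to -0.24) in menin-null cells after division. From 0 to 2600 bp it had 51.8 and 53.7 RPM in the mESCs and 92.6 and 110 RPM in the PILECs, with PILEC to mESC log2 ratios of 0.81 (0.53 to 1.10) in wt and 0.93 (0.69 to 1.18) in menin-null cells after division. Of the tags within 1 kb of the start, 47.8% (exact 95% binomial interval 39.3 to 56.5) lay downstream in wt mESCs and 46.6% (40.2 to 53.2) in menin-null mESCs, against 62.1% (59.3 to 64.8) and 66.6% (64.0 to 69.1) in the PILECs. This downstream stretch holds the start of BC042782 on the opposite strand, from which H3K4me3 cannot be told apart.

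Fosl2 had most of its tags upstream, with 29.1% downstream in wt and 30.4% in menin-null mESCs and 39.6% and 43.5% in the PILECs. A separate group of tags 3800 to 2400 bp upstream of Fosl2, where Gm10463 starts, had 14.0 and 9.38 RPM in mESCs and 10.2 and 7.30 RPM in PILECs, and its menin-null to wt log2 ratio in PILECs was -0.45 (-0.78 to -0.13). Fosb had a second stretch 1400 to 1800 bp inside the gene, with 9.04, 12.5, 13.6 and 16.0 RPM in wt mESCs, menin-null mESCs, wt PILECs and menin-null PILECs, beside 7.81, 7.68, 4.58 and 5.77 RPM in the 400 bp before its start. Fos had tags 2000 to 1000 bp upstream (7.40, 4.83, 8.10 and 5.32 RPM in the same order) apart from those at its start. The PILEC to mESC log2 ratios of the inner Fosb stretch were above 0 on both scales, with intervals that included 0 before division. They were 0.53 (-0.08 to 1.15) before and 1.58 (0.96 to 2.20) after division in wt cells. In menin-null cells they were 0.33 (-0.13 to 0.78) and 1.08 (0.62 to 1.54). All of these stretches were picked from the profiles after their values were seen, and their ratios are descriptions.

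**Figure D5:**
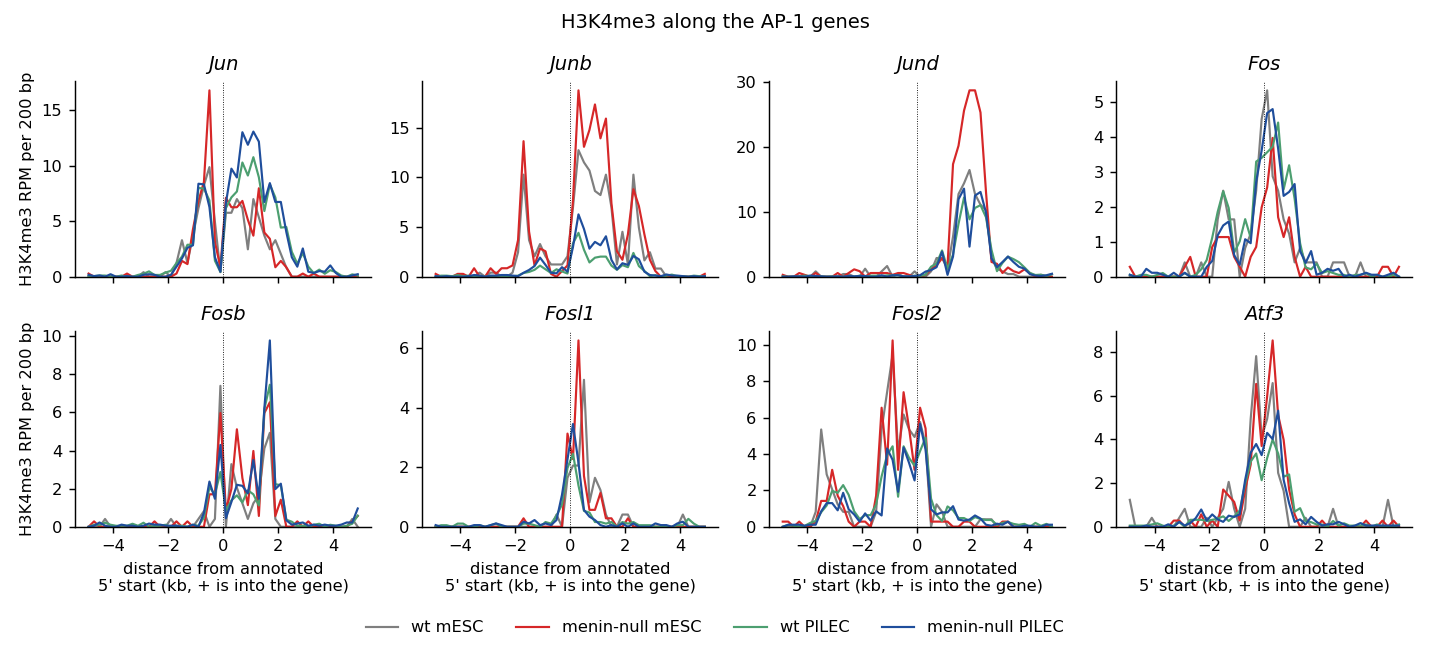
H3K4me3 RPM in 200-bp bins (vertical axis, own scale in each panel) by distance from the annotated 5′ start (horizontal axis, kb, positive into the gene) for the 8 AP-1 genes in the 4 ChIP libraries (colors). Most of the Jund mark lies between 1200 and 2800 bp and is highest in menin-null mESCs, with a lower shoulder from 3000 to 4000 bp in the PILEC lines, and the Junb maximum 2200 to 1400 bp upstream stands out in the mESC lines.

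Genes that act with AP-1 were counted as lists. Of 11 relatives with enough tags (13 listed), 4 were called higher in menin-null mESCs and none lower, against 10.3% and 1.51% of all genes. They were Batf2 with a log2 ratio of 0.94 (0.55 to 1.33), Mafk with 0.84 (0.37 to 1.31), Mafa with 0.80 (0.31 to 1.28) and Jdp2, which was not called before the division. The median of the 11 was 0.48, against 0.24 over all genes. In PILECs none of the 11 was called (1.77% and 4.25% of all genes), with a median of -0.08 against -0.06. Mafa, a regulator of insulin in beta cells, had 20.6 and 34.7 RPM in wt and menin-null mESCs and 7.99 and 5.71 RPM in the PILECs, and was called lower in PILECs in both genotypes. Between the wt stages 5 of the 11 were called higher and 1 lower (28.3% and 16.2% of all genes), and between the menin-null stages 2 higher and 2 lower (16.3% and 26.0%). Without the division 3 were higher and 2 lower in wt cells (14.4% and 22.4%), and 3 higher and 5 lower in menin-null cells (9.15% and 36.2%).

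Of 8 AP-1 kinases with enough tags in mESCs (9 listed), Mapk9, the gene of JNK2, was called higher in menin-null mESCs with a log2 ratio of 0.70 (0.33 to 1.07), and none was lower. That is 1 of 8, near the 10.3% of all genes. In PILECs Map2k4, which activates JNK, was called lower with a log2 ratio of -0.62 (-0.81 to -0.44), and none of 9 was higher, against 4.25% and 1.77% of all genes; before the division Map2k4 was not called. Mapk10, the neuronal JNK3, had 3 tags in wt mESCs and 0 tags in menin-null mESCs but 283 and 219 tags in the PILECs.

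Of 19 other immediate-early genes 4 were called higher in menin-null mESCs and none lower, against 10.3% and 1.51% of all genes, with a median log2 ratio of 0.31 against 0.24. They were Ier3 with 0.90 (0.31 to 1.49), Arc with 0.70 (0.28 to 1.11), Dusp1, the phosphatase of stress kinases, with 0.67 (0.36 to 0.99), and Ier5 with 0.61 (0.18 to 1.04). Before the division 2 were called higher (8.95% of all genes), Ier3 and Ier2, and Arc, Dusp1 and Ier5 were not. In PILECs 1 was called higher, Zfp36 with 0.78 (0.44 to 1.12), the gene of an mRNA-decay factor, and none lower, against 1.77% and 4.25% of all genes. Between the wt stages 7 of the 19 were called higher in PILECs and 4 lower, near the 28.3% and 16.2% of all genes. Among them were Ier3 (1.56, 1.05 to 2.08) and Btg2 (1.37, 1.02 to 1.72) higher and Arc (-2.01, -2.47 to -1.55) and Zfp36 (-1.58, -2.01 to -1.15) lower. Without the division 4 were higher and 6 lower, against 14.4% and 22.4%.

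Known AP-1 targets were mostly called lower in PILECs. Of 9 with enough tags (12 listed), 7 were called lower in wt PILECs than in wt mESCs and 1 higher (16.2% and 28.3% of all genes), with a median log2 ratio of -1.55, against 0.23 over all genes. In menin-null cells 8 were called lower and 1 higher (26.0% and 16.3% of all genes), with a median of -1.32 against -0.06. The gelatinase gene Mmp9 had a wt log2 ratio of -3.31 (-4.27 to -2.36), with 27 tags in mESCs and 12 tags in PILECs, and Ccnd1, the gene of cyclin D1, had -1.12 (-1.48 to -0.77). In wt PILECs Mmp9 and Plaur were at 0.65 and 0.90 of the local input, which is background level, and Spp1 and Timp1 were at 1.56 and 2.32-fold. In wt mESCs Mmp9, Plaur, Spp1 and Timp1 had 27, 22, 25 and 11 tags, so their stage ratios rest on few tags. Ccnd1, Tgfb1 and Hmox1 were at 11.5, 9.66 and 14.6-fold in wt PILECs. Vim, the gene of the filament protein vimentin, was the target called higher, with 1.02 (0.63 to 1.41) in wt and 0.85 (0.54 to 1.17) in menin-null cells. These stage counts were the same without the division by the input. Between the genotypes 1 of 9, Plaur, was called higher and 1, Mmp9, lower in menin-null mESCs (10.3% and 1.51% of all genes), with log2 ratios of 0.72 (0.00 to 1.44) and -1.22 (-2.09 to -0.34), and Plau alone of 9 was called lower in menin-null PILECs (-0.76, -1.17 to -0.35), where 4.25% of all genes were called lower and 1.77% higher. Before the division Plaur was not called. Mmp3, Mmp13 and Il6, which AP-1 drives in inflammation, had at most 9 tags in any library.

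The genes whose levels over the 4 libraries were nearest to those of Jund, by Euclidean distance in log2(RPM + 0.1) among 13246 genes with at least 20 tags in each library, were Pgp on chromosome 17 (distance 0.16), Nutf2 on chromosome 8 (0.22) and Irs2 on chromosome 8 (0.24). Pgp had 71.9, 124, 58.6 and 56.0 RPM in wt mESCs, menin-null mESCs, wt PILECs and menin-null PILECs. Nearest to Fos were 5730437N04Rik (0.15), Slco5a1 (0.16) and Ftsj1 (0.17), none of them on chromosome 12.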

How the data were processed

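H3K4me3 ChIP and input DNA of 4 kinds of cells were sequenced (1 library each, 8 in all). The authors aligned 36-bp reads to mm9, kept uniquely placed reads and deposited 1 line per tag, so the deposited files give tag positions, from which counts were made here; the alignment score deposited with each tag was not used. Tags with over 2 mismatches (1.04% to 1.81% per library) and repeats at the same position and strand (4.17% to 11.5% of H3K4me3 libraries) were kept.

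Tags were moved 125 bp to the middle of the 250-bp fragment and counted within 1 kb of the start (GENCODE vM1 on mm9, 26212 genes). Only protein-coding, long intergenic noncoding RNA and processed-transcript genes were taken from the annotation. Counts were scaled by library totals (2432377 to 19016697 tags), with 1 tag added for ratios. Ratios were divided by the ratio of input tags within 250 kb, leaving out 2 kb on each side of the start, and 95% intervals came from the 4 counts. Levels have exact Poisson and shares exact binomial (Clopper-Pearson) intervals, which cover counting error only, as does the limit of 3 tags for a count of 0. With 1 library per group there was no test. Genes at 1.5-fold or more with an interval leaving out 0 and at least 20 tags were called.

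The named genes are the 8 members, the targeted gene, fixed lists of AP-1 relatives, kinases, immediate-early genes and targets, neighbours within 5 kb and the 3 nearest genes in pattern to Jund and to Fos; of the 6 neural markers 4 were placed. Members and lists were chosen with earlier results of these data known. Python 3.11.15, numpy 2.4.6, pandas 2.3.3, scipy 1.17.1 and matplotlib 3.10.9 were used, and the calls were tested on simulated data. The simulated counts held counting error only, so they do not cover variation between cultures or lines.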

Additional observations from a re-analysis of the deposited data

Results flagged for a closer look

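The genotype ratio at Jund differed between the 2 stages beyond counting error, with a log2 ratio in PILECs minus that in mESCs of -0.71 (95% counting interval -1.01 to -0.41). Jund had 71.5 RPM in wt and 131 RPM in menin-null mESCs, and 53.5 RPM in wt and 55.1 RPM in menin-null PILECs. The median of this difference over 15124 genes was -0.34, and 14.7% of genes had a lower one, so it is not particular to Jund. Since each condition has 1 library, the interval says nothing of how such a difference varies between cultures or clones. None of the other 7 members had an interval of this difference that left out 0.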

How the results depend on the processing

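The number of members called, 2 in menin-null over wt mESCs, 0 in PILECs, 4 between wt stages and 1 between menin-null stages, moved with several settings. Without division by the input it was 2 and 3 for the wt and menin-null stages, and with input over the whole chromosome (chosen after seeing the data) it was 1 in mESCs and 2 and 3 for the stages. With the median ratio of all genes set to 0 it was 0 in mESCs, 1 in PILECs and 0 for the menin-null stages. For the wt stages it stayed at 4, but Fosl2 (-0.60) was called lower and Fos (0.43) was no longer called. With tags within 500 bp it was 1 in mESCs, 1 for the wt stages and 0 for the menin-null stages, and with tags within 2 kb it was 2 for the menin-null stages. The annotated 5′ end as start gave 1 in mESCs and 2 for the menin-null stages, input within 50 kb gave 0 for the menin-null stages and input within 1000 kb gave 1 in mESCs. A 2-fold threshold gave 0 in mESCs and for either pair of stages. In 1 random draw of all libraries thinned to 2432377 tags, 2 were called in PILECs (Junb with 0.82 and Fosl1 with 1.55), and 1 tag per position and strand gave 0 for the menin-null stages. Apart from the setting without division, the share of all genes called under each changed setting is not given. These counts therefore cannot be set against such a share.

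Called values changed sign as follows. The wt stage ratio of Jund was -0.43 without division and -0.19 with input over the whole chromosome, that of Fosb was -0.20 and -0.063, and the mESC genotype ratio of Jund was -0.13 around its outer start. The stage difference of the genotype ratio at Fos, whose interval included 0, was -0.23 and moved to 0.54 without division. The causes were not tested. No paired analysis was possible because each group has 1 library and no test was run; for the same reason no replicate could be left out. The mESC ratios rest on 33 to 174 tags per member in wt mESCs.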
